A study of Rattus norvegicus with 8 samples.

Results

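The genes described here are 10 that microglia, the resident macrophages of the brain, are known to turn up or down near degenerating neurons. Of these, 8 are genes of the disease-associated state (*Apoe*, *Cst7*, *Spp1*, *Gpnmb*, *Lpl*, *Itgax*, *Clec7a* and *Cd68*), and 2, *P2ry12* and *Tmem119*, mark the homeostatic state of a resting brain. Members were all probes of the array, other than controls, whose RefSeq accession is paired with one of these rat symbols. The rule found 10 probes for 9 of the 10 genes, out of 45598 probes and 16678 named genes on the array. No probe was matched to *Itgax*. The probe for *Cst7* was not well above background on any array, so that 9 probes for 8 genes (6 induced and 2 homeostatic) were tested, among 33853 probes in all.

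The tissue was the injected-side *substantia nigra* (SN) of female Sprague Dawley rats that were 3 months old at surgery and were studied 20 weeks later. Both groups received an adeno-associated virus of serotype 6 into the nigra of 1 side. The AAV-αSyn group received wild-type human α-synuclein, the protein that accumulates in Parkinson's disease, and the AAV-Null group received a null vector. The vector stocks differed in titre (5.2e10 vector genomes per µL for AAV-αSyn and 5.3e9 for AAV-Null), so that transgene and titre cannot be told apart. The promoter of the transgene is not given in the sources used here. Each group had 10 rats assigned and is represented by 4 arrays, 1 sample each. The methods call the arrays biological replicates, but speak of fewer arrays per group than were analysed.

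Microglia leave the homeostatic state in steps. A first step lowers homeostatic genes such as *P2ry12*, *Tmem119* and *Cx3cr1*, and a second step, which needs the lipid receptor TREM2 and its adaptor TYROBP, completes the rise of genes for lipid handling (*Apoe*, *Lpl*), lysosomes (*Cd68*, *Gpnmb*), protease inhibition (*Cst7*), adhesion and pattern recognition (*Itgax*, *Clec7a*) and the secreted phosphoprotein osteopontin (*Spp1*). In the nigra, microglia are dense, and they respond to the loss of dopaminergic neurons. Several of these genes are also used by other cells: astrocytes make much of the brain's apolipoprotein E, and some neurons express *Spp1*. The samples were pieces of tissue, in which fewer cells of a type and less RNA per cell cannot be told apart.

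The value of a probe on an array is its background-corrected fluorescence on the log2 scale after quantile normalization, so that a difference of 1 is a doubling. The brightness of a probe depends on its sequence, so levels of different genes are not compared. All 8 arrays lay on 1 slide, had 74.8% to 77.5% of their spots well above background and correlated with each other at r = 0.983 to 0.993 across probes. Genes of microglia and macrophages in general, such as *Aif1* (the antigen Iba1), *Itgam* (CD11b) and *C1qa* (complement), were above background on all 8 arrays for 15 of 15 genes. Markers of 2 neuronal types differed in level between the groups, mostly without passing the adjustment. Those of the dopaminergic neurons of the nigra were all lower in AAV-αSyn (7 of 7 genes, median difference -0.38; 4 with an unadjusted p under 0.05, against 2.32% of all probes lower at that level, and 0 after adjustment), with a summed intensity of 153000 to 195000 on the AAV-Null arrays and 120000 to 130000 on the AAV-αSyn arrays. Of the 8 tested genes of hindbrain and raphe neurons, 4 were above background on all arrays, and these 4 were all higher in AAV-αSyn (median difference 1.79; 3 with an unadjusted p under 0.05, against 3.31% of all probes higher at that level, and *Slc6a5*, the neuronal glycine transporter, past the adjustment). The other 4 are left out of these counts, since *Dbh*, *Hoxb3* and *Hoxb5* were above background on 0 AAV-Null arrays and *Fev* on 1. The summed intensity of the 4 genes was 784 to 3610 on the AAV-Null arrays and 3550 to 8690 on the AAV-αSyn arrays, and these ranges overlapped. Their part in the values of the microglial genes was not tested.

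No disease-associated or homeostatic gene passed the test between AAV-αSyn and AAV-Null. Of the 9 tested probes, 0 passed limma's test after adjustment over all probes, 0 had an unadjusted p under 0.05, and 0 had groups of arrays that did not overlap. Over all probes, 0.0148% passed the adjustment, 5.64% had an unadjusted p under 0.05, and 3.83% of those with a value on every array did not overlap between the groups. The fitted differences of the 6 induced genes lay between -0.09 and 0.38, with 5 above and 1 below 0 and a median of 0.18, and those of *P2ry12* and *Tmem119* were 0.08 and -0.06. The median of the induced genes was 0.33 without the first AAV-Null array and 0.08 without the third, and between 0.11 and 0.12 without the fourth AAV-Null, the first AAV-αSyn or the fourth AAV-αSyn array or with array weights. It was 0.10 after normexp background correction or with both probes of *Clec7a* averaged. The median over all probes was 0.01, and the middle 90% of probes lay between -0.34 and 0.32. The interval of each difference, which shows what size of change these arrays allow, is given gene by gene.

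**Figure D1:**
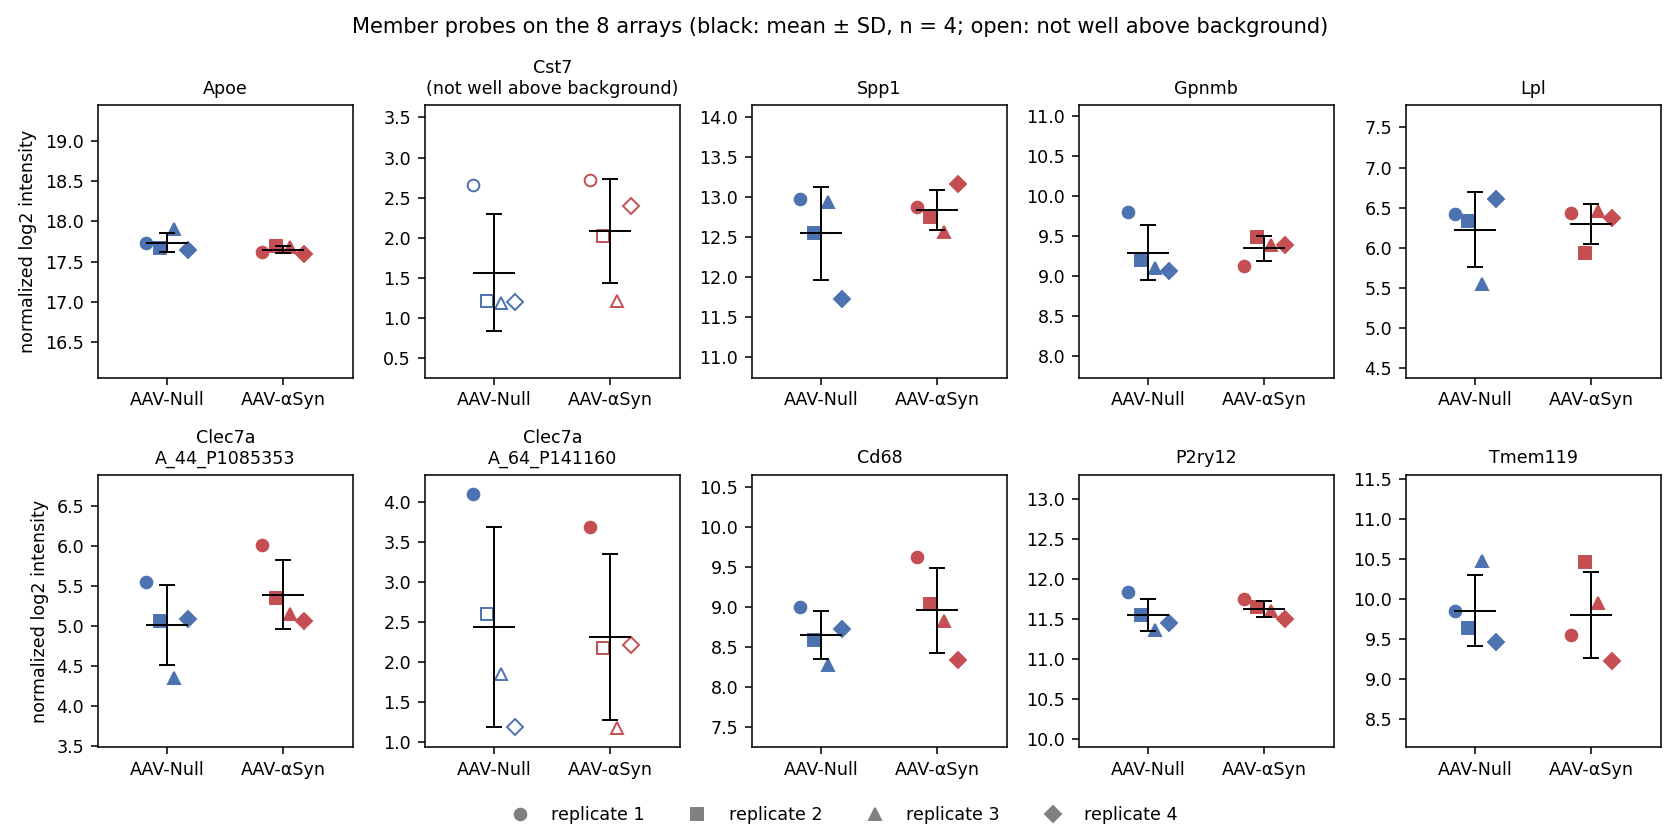
Normalized log2 intensity (y axis, of the same height in each panel but centred on each probe) of the 10 member probes on the 4 AAV-Null (blue) and 4 AAV-αSyn (red) arrays, with the mean ± SD in black, a symbol for each replicate number and open symbols where the probe was not well above background. The groups overlap in all panels; *Apoe* and *P2ry12* have the narrowest spread, and 1 AAV-Null array is low for *Spp1* (11.72) and another for *Clec7a* (4.35) and *Lpl* (5.55).

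Of the lipid genes, *Apoe* encodes apolipoprotein E, the main lipid carrier of the brain. The probe (A_44_P171440, on 10 spots of each array) read 17.73, 17.67, 17.90 and 17.65 on AAV-Null arrays 1 to 4 and 17.62, 17.69, 17.68 and 17.60 on AAV-αSyn arrays 1 to 4. All 8 values fell within a narrow band in which the third AAV-Null array was highest. The means were 17.74 ± 0.115 and 17.65 ± 0.0444 (SD, n = 4), a difference of -0.09 with a standard error of 0.0788 (limma, adjusted p = 0.972). The 95% interval, 0.828 to 1.06 in fold, was the narrowest among the induced genes. A rise of *Apoe* in the tissue above 1.06-fold lies outside it, with quantile normalization. With arrays scaled by their 75th percentile the difference was -0.13 (limma, unadjusted p = 0.296). The difference was -0.04 without the third AAV-Null array or with array weights. *Lpl* encodes lipoprotein lipase, which releases fatty acids from lipoproteins. Its probe (A_44_P1016480) read 6.42, 6.33, 5.55 and 6.60 on the AAV-Null arrays and 6.44, 5.93, 6.45 and 6.37 on the AAV-αSyn arrays. The AAV-αSyn values all lay inside the range of AAV-Null, and the second AAV-αSyn array lay apart from the other 3. The difference was 0.07 ± 0.235 (SE; limma, adjusted p = 0.989), with an interval of 0.723 to 1.53 in fold, and it was -0.16 without the third AAV-Null array.

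*Spp1* encodes osteopontin, a secreted glycoprotein that binds integrins and CD44. The probe (A_44_P491796, 10 spots) read 12.97, 12.54, 12.93 and 11.72 on the AAV-Null arrays and 12.87, 12.74, 12.56 and 13.16 on the AAV-αSyn arrays. One AAV-αSyn array had the highest value of all, but 2 AAV-Null arrays were above the other 3. The means were 12.54 ± 0.580 and 12.83 ± 0.251 (SD, n = 4), a difference of 0.29 ± 0.278 (SE; limma, adjusted p = 0.972) with an interval of 0.785 to 1.91 in fold. With single arrays left out the difference ran from 0.02, without the fourth AAV-Null array, to 0.43, without the first. Repeat spots on the same array had an SD of 0.0258 to 0.0592, far below the SD between arrays.

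*Gpnmb* encodes a transmembrane glycoprotein of lysosomes and phagosomes. Its probe (A_44_P990376, 10 spots) read 9.80, 9.21, 9.10 and 9.07 on the AAV-Null arrays and 9.13, 9.49, 9.39 and 9.40 on the AAV-αSyn arrays. The first AAV-Null array was the highest of all, and 3 AAV-αSyn arrays were above the other 3 AAV-Null arrays. The difference was 0.06 ± 0.173 (SE; limma, adjusted p = 0.988), with an interval of 0.791 to 1.37 in fold. Without the first AAV-Null array it was 0.23, with an unadjusted p of 0.070 by limma. Without the third or the fourth AAV-Null array it was -0.007 and -0.017. *Cst7*, which encodes cystatin F, an inhibitor of lysosomal cysteine proteases, had a single probe (A_42_P832728) that was not well above background on all 8 arrays, and no fold is given. Its normalized values lay between 1.19 and 2.72.

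*Clec7a* encodes dectin-1, a receptor for β-glucans, and is known to be low in resting microglia. The brighter of its 2 probes (A_44_P1085353, 2 spots) read 5.55, 5.06, 4.35 and 5.08 on the AAV-Null arrays and 6.02, 5.34, 5.14 and 5.06 on the AAV-αSyn arrays. The first AAV-αSyn array was the highest and the third AAV-Null array the lowest, and between them the groups were interleaved. The means were 5.01 ± 0.496 and 5.39 ± 0.433 (SD, n = 4), and the difference of 0.38 ± 0.289 (SE) was the largest fitted value among the members (limma, unadjusted p = 0.226, adjusted p = 0.972; exact permutation test over the 70 splits of the arrays, two-sided, p = 0.371, where the smallest possible p is 0.0286). Its interval ran from 0.820 to 2.06 in fold, so that a doubling of *Clec7a* lies within what these arrays allow. With single arrays left out the estimate ran from 0.16, without the third AAV-Null array, to 0.56, without the first (limma, unadjusted p = 0.0862), and it was 0.17 without the first AAV-αSyn array. The other probe (A_64_P141160) was above background on 1 array of each group, the first in both, and gave -0.12 with an interval of -1.73 to 1.49 on the log2 scale. The mean of both probes gave 0.13.

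*Cd68* encodes a glycoprotein of the lysosomal membrane, commonly stained to show phagocytic microglia. Its probe (A_64_P019260) read 9.01, 8.59, 8.28 and 8.73 on the AAV-Null arrays and 9.62, 9.04, 8.83 and 8.34 on the AAV-αSyn arrays. As for *Clec7a*, the first AAV-αSyn array was the highest and the third AAV-Null array the lowest, and the fourth AAV-αSyn array was below 3 of the 4 AAV-Null arrays. The means were 8.65 ± 0.303 and 8.96 ± 0.531 (SD, n = 4), a difference of 0.31 ± 0.269 (SE; limma, adjusted p = 0.972) with an interval of 0.806 to 1.90 in fold. It was 0.09 without the first AAV-αSyn array and 0.52 without the fourth.

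The 250 bases before the start of *Clec7a* and *Cd68*, the pair of induced genes that varied together, are shown with those of *Gpnmb*, which varied apart from them. The sequences are those of RefSeq on the rat assembly GRCr8, written on the strand of the gene, 5′ to 3′. Both strands were searched for GAGGAAG, a motif bound by PU.1, the master factor of the macrophage lineage, and for TGANTCA, the motif of AP-1, a factor of activated cells. Capitals mark the matches. The windows are chr4:164599828-164600077 (minus strand) for *Clec7a*, chr10:54882442-54882691 (minus strand) for *Cd68* and chr4:79340878-79341127 (plus strand) for *Gpnmb*.
Clec7a: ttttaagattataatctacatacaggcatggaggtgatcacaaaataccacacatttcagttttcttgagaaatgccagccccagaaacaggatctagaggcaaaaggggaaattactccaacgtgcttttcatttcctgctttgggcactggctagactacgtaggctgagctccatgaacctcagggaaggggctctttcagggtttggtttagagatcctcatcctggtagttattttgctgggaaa
Cd68: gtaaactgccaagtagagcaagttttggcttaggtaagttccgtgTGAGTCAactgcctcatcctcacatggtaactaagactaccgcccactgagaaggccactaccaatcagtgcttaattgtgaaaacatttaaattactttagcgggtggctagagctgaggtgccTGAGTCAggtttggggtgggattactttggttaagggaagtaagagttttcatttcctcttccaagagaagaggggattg
Gpnmb: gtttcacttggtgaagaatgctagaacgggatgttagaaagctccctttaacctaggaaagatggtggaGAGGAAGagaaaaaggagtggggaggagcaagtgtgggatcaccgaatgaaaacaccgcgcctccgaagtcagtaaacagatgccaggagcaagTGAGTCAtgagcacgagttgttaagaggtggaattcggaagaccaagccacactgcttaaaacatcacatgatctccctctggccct

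The *Cd68* window held the AP-1 letters at 205 and 80 bases before the start, and the *Gpnmb* window held the PU.1 letters at 181 and the AP-1 letters at 87 bases. Neither motif was found in the *Clec7a* window. Over all 9 windows of the 7 member genes in the table, 1 held the PU.1 letters and 3 the AP-1 letters, the third being that of *Itgax*, at 56 bases. Of 33469 promoter windows of the same length 10.2% held the first motif and 6.34% the second. A match of letters is a description of the sequence and was not tested as a binding site. Promoters of *Lpl*, *P2ry12* and *Tmem119* are not shown.

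Neither homeostatic gene passed the test in either direction. *P2ry12* encodes the purine receptor by which microglial processes sense ADP from injured cells. Its probe (A_43_P12315) read 11.84, 11.55, 11.37 and 11.45 on the AAV-Null arrays and 11.75, 11.66, 11.60 and 11.51 on the AAV-αSyn arrays. The AAV-αSyn values all lay within the range of AAV-Null. The difference was 0.08 ± 0.114 (SE; limma, adjusted p = 0.975), and the interval of 0.879 to 1.27 in fold leaves a fall of *P2ry12* below 0.879-fold outside it. With single arrays left out the difference ran from 0.02, without the third AAV-Null array, to 0.17, without the first. *Tmem119* encodes a membrane protein used to tell microglia from other macrophages. Its probe (A_42_P612939) read 9.85, 9.64, 10.47 and 9.47 on the AAV-Null arrays and 9.55, 10.46, 9.96 and 9.22 on the AAV-αSyn arrays. Each group held 1 high value, with the other arrays at 9.96 or below. The difference was -0.06 ± 0.303 (SE; limma, adjusted p = 0.993), with an interval of 0.591 to 1.56 in fold, so a moderate change of *Tmem119* either way would not have been seen. The SD within groups was larger for *Tmem119* than for 91.1% of tested probes, and for *Clec7a*, *Spp1* and *Cd68* it was larger than for 90.1%, 89.2% and 88.4%. For *P2ry12* this share was 40.4%, and for *Apoe* it was lower.

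**Figure D2:**
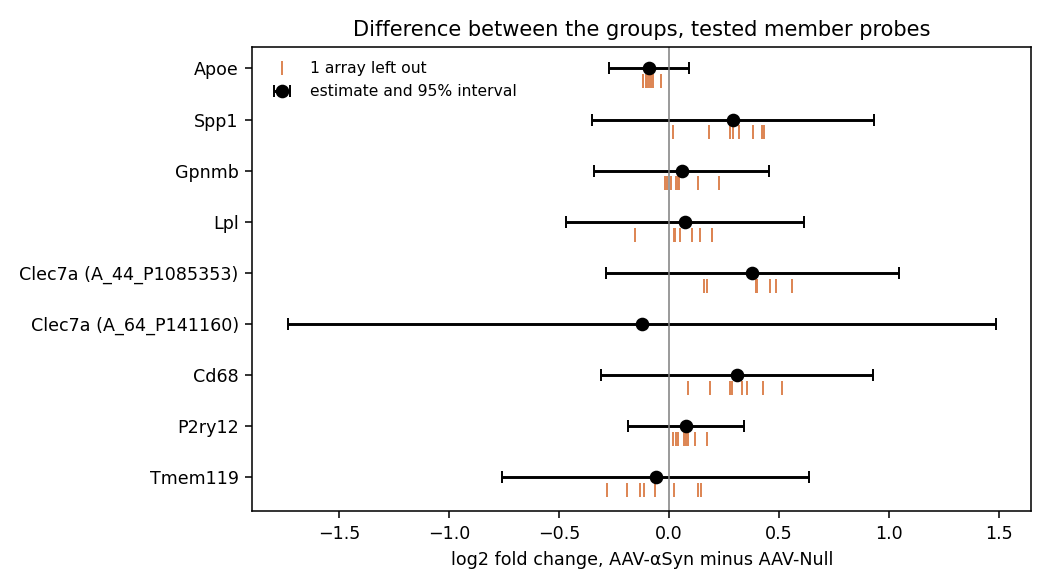
Log2 difference between the groups (x axis, AAV-αSyn minus AAV-Null) for the 9 tested member probes, with limma's 95% interval as a bar and, for the brightest probe of each gene, the estimate with each of the 8 arrays left out in turn as orange ticks. All intervals include 0; the interval of *Apoe* is the narrowest of the induced genes and that of the dim second probe of *Clec7a* (-1.73 to 1.49) the widest.

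The members did not rise and fall together from array to array. Over the 28 pairs of the 8 tested genes the median correlation across the 8 arrays was 0.14, with 17 pairs above 0. These correlations describe the same 8 arrays, normalized together, and carry no test. *Clec7a* and *Cd68* were closest (Pearson's r = 0.92, Spearman's rho = 0.98, and r = 0.90 within the groups), and r was 0.79 without the 2 arrays farthest from the median of *Clec7a*. *P2ry12* followed the same arrays (r = 0.87 with *Clec7a* and 0.80 with *Cd68*), although it is known as a gene that falls when *Clec7a* rises. *Gpnmb* was only weakly related to *Clec7a* (r = 0.31) and *Cd68* (0.14), and *Spp1* was related to neither (0.08 and -0.02). *Tmem119* had an r of -0.07 with *P2ry12*, its partner in the homeostatic pair, and of 0.77 with *Apoe*, and without the 2 farthest arrays these were 0.43 and 0.53. The most negative pair, *Lpl* and *Tmem119* (r = -0.81), rested on the third AAV-Null and second AAV-αSyn arrays, without which r was -0.01.

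Likeness to other genes was read from 136 genes of the lists used here, as the highest correlation across the 8 arrays. For *Clec7a* the most alike was *Cd53* (r = 0.96, rho = 0.93), a tetraspanin of leukocytes, followed by *Aif1* (0.95), and for *Cd68* it was *B2m* (r = 0.97, rho = 0.95), the light chain of MHC class I, followed again by *Aif1* (0.96). *P2ry12* was most like *Aqp4* (r = 0.97, rho = 0.98), the water channel of astrocytes, and then *Laptm5* (0.95), a lysosomal protein of blood-derived cells. *Apoe* was most like *Serpine2* (r = 0.98, rho = 0.98), a protease inhibitor of the disease-associated list. Next for *Apoe* came *Cst3* (0.93), of the homeostatic list. Without the 2 arrays farthest from each gene's median these were 0.84 for *Cd53*, 0.88 for *B2m*, 0.93 for *Aqp4*, 0.95 for *Serpine2* and 0.35 for *Cst3*. The remaining genes had a lower r or one that fell without those arrays, other than the likenesses to *Csf1r* and *Capg*. *Tmem119* was most like *Cnp* (r = 0.81, and 0.52 without the 2 farthest arrays), an enzyme of myelin, and equally like *Csf1r* (0.81, and 0.83). *Gpnmb* was most like *Cd9* (0.79, and 0.53), *Spp1* most like *Lcn2* (0.73, and 0.46) and nearly as much like *Capg* (0.72, and 0.87), and *Lpl* most like *Lum* (0.92, and -0.14).

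**Figure D3:**
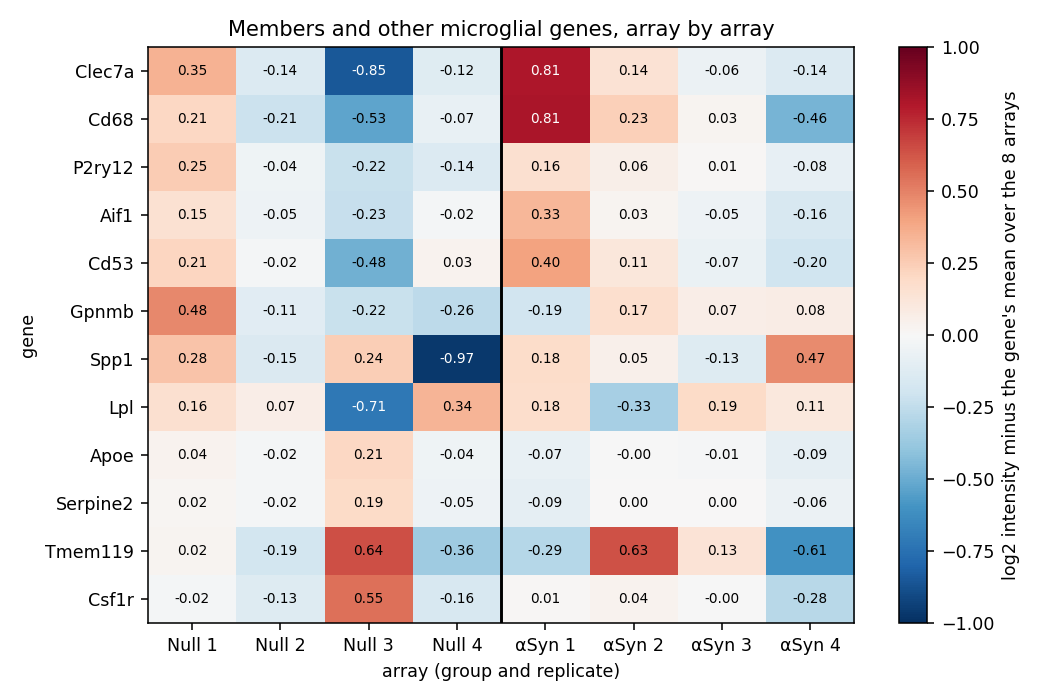
Log2 intensity on each of the 8 arrays (x axis) minus the gene's mean over the arrays (colour and printed value) for the 8 tested members and for *Aif1*, *Cd53*, *Serpine2* and *Csf1r* (y axis), with AAV-Null left and AAV-αSyn right of the line. *Clec7a*, *Cd68*, *P2ry12*, *Aif1* and *Cd53* are all high on the first array of each group and low on the third AAV-Null array, where *Apoe* and *Tmem119* are high.

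Single arrays stood out for several members at once. The third AAV-Null array had the lowest value of all 8 arrays for 4 of the 8 tested genes (*Clec7a*, *Cd68*, *P2ry12* and *Lpl*) and the highest for 2 (*Apoe* and *Tmem119*). The first AAV-αSyn array was highest for 2, *Clec7a* and *Cd68*. Averaged over the 6 induced genes, arrays 1 to 4 lay at 0.34, -0.01, -0.23 and -0.10 for AAV-Null and at 0.37, 0.13, 0.10 and 0.08 for AAV-αSyn, relative to the AAV-Null mean. The first array of each group was the highest, and only 1 of the 4 AAV-αSyn arrays was above all AAV-Null arrays. Averaged over *P2ry12* and *Tmem119*, the arrays lay at 0.14, -0.11, 0.22 and -0.24 for AAV-Null and at -0.06, 0.35, 0.07 and -0.34 for AAV-αSyn. The AAV-αSyn arrays covered the wider range and passed the AAV-Null arrays at both ends.

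Genes listed here as markers of blood leukocytes also varied between these arrays. The 4 genes of monocytes and granulocytes above background on all arrays lay at 0.49, 0.06, -0.38 and -0.18 on the AAV-Null arrays and at 0.54, 0.01, -0.06 and -0.71 on the AAV-αSyn arrays, with a summed intensity of 1730 to 2300 and 1210 to 3390. These averages were highest on the first array of each group, but the 4 genes differed. *Vcan* and *Lcn2* were highest on the first array in both groups. *S100a9* read 4.90 on the first AAV-αSyn array and 5.37 on the second. *Plac8* read 10.05 on the first AAV-Null array and 10.41 on the fourth. The 5 lymphocyte genes above background on all arrays lay at 0.09, 0.04, -0.43 and 0.31 and at 0.68, 0.13, -0.03 and -0.48, with summed intensities of 319 to 419 and 291 to 521. Their highest value was on the first AAV-αSyn array. *Ccr2*, a defining marker of monocytes, was not well above background on any array. Of the T cell markers, *Cd3e* and *Cd8a* were not well above background on any array, while *Cd3d*, *Cd3g* and *Cd8b* were above it on all 8. None of the tested genes of either list passed limma's test, before or after adjustment. The part of these cells in the values of *Clec7a* and *Cd68* on the first arrays was not tested.

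No gene of the wider disease-associated set passed the adjustment. Of 38 further genes of that state, 37 were on the array and 35 were tested. Over the 33 that were above background on all 8 arrays, each by its brightest probe, the median difference was 0.05. Of these 0 passed limma's test, before or after adjustment, where 3.31% of all probes were higher and 2.32% lower at an unadjusted p under 0.05. Some dimmer probes of *Igf1* were lower in AAV-αSyn with an unadjusted p of 0.00973 to 0.0212 by limma, and are given at the end. Without the third AAV-Null array 3 of the tested genes had an unadjusted p under 0.05, and with array weights 4, none of them past the adjustment. In those fits 8.12% and 13.3% of all probes had an unadjusted p under 0.05. Of the 35 tested genes 26 were above and 9 below 0, the lowest being *Cd52*, a surface glycoprotein of leukocytes, at -0.40 ± 0.306 (SE). *Ccl4*, a chemokine of activated microglia, had means of 3.18 ± 0.378 and 3.95 ± 0.433 (SD, n = 4). It was above background on 0 AAV-Null and 3 AAV-αSyn arrays, and so was tested only through its AAV-αSyn arrays. Against AAV-Null values raised to a floor, its AAV-αSyn mean was 1.63-fold higher, an estimate and not a lower limit. The difference did not pass the adjustment (limma, unadjusted p = 0.0156, adjusted p = 0.76). The floor is, on each AAV-Null array, the lowest value called well above background, used where the probe's value was below it. The AAV-αSyn mean includes the array on which the probe was not above background. *Ccl3*, a related chemokine, gave 0.50 ± 0.303 (SE; limma, adjusted p = 0.958). *Trem2* and *Tyrobp*, the receptor and adaptor on which the second step depends, gave 0.08 ± 0.111 and 0.13 ± 0.164 (SE). *Axl*, a receptor for dying cells, gave 0.33 ± 0.197, and *Lgals3*, galectin-3, gave 0.47 ± 0.570, with AAV-Null arrays between 8.84 and 11.19.

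Of 20 further homeostatic genes, 17 were tested, 0 passed limma's test at either level, 7 were above and 10 below 0, and the median was -0.04. Without the first, the third or the fourth AAV-Null array 1 gene had an unadjusted p under 0.05, as did 6.22%, 8.12% and 8.27% of all probes. *Cx3cr1*, the receptor for neuronal fractalkine, gave -0.08 ± 0.138 (SE), and *Csf1r*, the receptor on which microglial survival depends, gave -0.12 ± 0.167. The 15 genes of microglia and macrophages in general had a median of 0.05, with 10 above and 5 below 0 and 0 past limma's test at either level; *Aif1* gave 0.07 ± 0.126, *Itgam* 0.15 ± 0.133 and *C1qa* -0.13 ± 0.175. *Mrc1*, a receptor of macrophages at the borders of the brain, was above background on 0 AAV-Null arrays and 1 AAV-αSyn array, and the 4 genes of such macrophages above background on all 8 arrays had a median of -0.25, none past limma's test at either level. Astrocyte genes had a median of 0.00 over 8 genes, with *Gfap* at 0.08 ± 0.370. The medians were 0.05 for oligodendrocyte genes, 0.04 for endothelial genes, 0.00 for fibroblast and meningeal genes and -0.23 for erythrocyte genes, and 0 genes of these lists passed limma's test at either level by their brightest probe. A dimmer probe of *Mbp*, a myelin gene, gave 0.23 (limma, unadjusted p = 0.0135, adjusted p = 0.747).

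**Figure D4:**
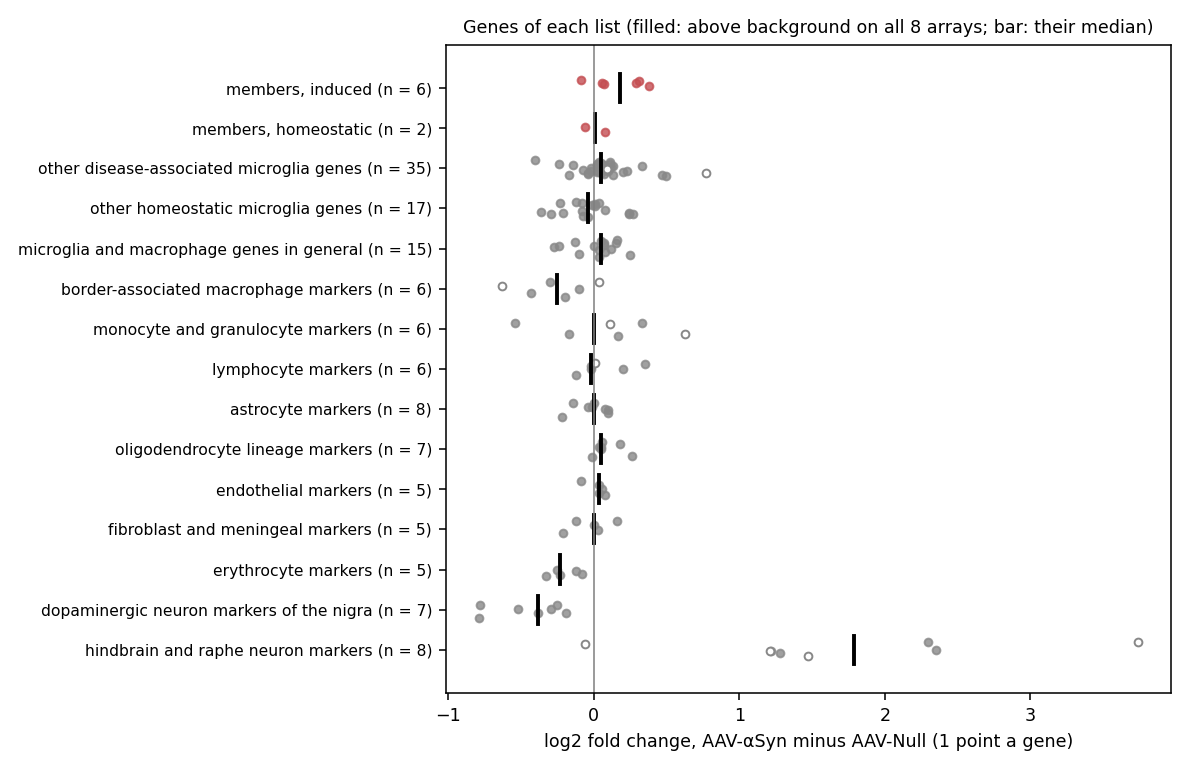
Log2 difference between the groups (x axis, AAV-αSyn minus AAV-Null) for each tested gene (points, spread vertically only for visibility) of the 15 lists (y axis), with the members in red, genes not above background on all 8 arrays as open points and the median of the filled points as a black bar. The induced members (median 0.18) and the other disease-associated genes (0.05) lie around 0, while the dopaminergic (-0.38) and hindbrain and raphe (1.79) lists lie apart.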

How the data were processed

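RNA from the SN was labelled with Cy3 and hybridised to 1-colour Agilent rat arrays. The authors deposited scanner files with each spot's intensity after background correction by Feature Extraction (12.0.3.2 in the file headers, 11.5.1.1 in the submitters' processing notes), not normalized between arrays, and a matrix of quantile-normalized log2 values, per the labels and methods. The file headers name rn4 for the array's design, and none of its coordinates are used. Here control spots and outlier spots were left out, and probes well above background (at least 0.5 of their spots) on at least 1 array were kept. Values were taken to log2, quantile normalized, averaged over spots and fitted with limma 3.58.1 (R 4.3.3, statmod 1.5.0, with files read by data.table, version 1.17.8), with no trend, two-sided. P-values were adjusted by Benjamini-Hochberg over all tested probes, with a threshold of 0.05. The number of arrays limits the precision, and p-values cover the spread between these samples. A table of RefSeq accessions for GRCr8 named 21229 of 45598 probes, and a gene with several probes is shown by its brightest. Named genes are all members, a fixed set of microglial and nigral genes, and up to 4 genes a list with the lowest p. Some genes that this rule selects are left out of the text. The members, the lists and this rule were chosen with earlier results of these data known. The test was checked on simulated data, with 200 probes shifted in AAV-αSyn. Of those shifted by 1 on the log2 scale 59% passed the adjustment, and of those shifted by 2, 91.5%. Alternatives changed the scaling, background, filter, variance model, blocks, probe choice and source, or left out 1 array.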

Additional observations from a re-analysis of the deposited data

Results flagged for a closer look

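Each of the 10 member probes was examined in both groups for an array that stood apart from the other 3, by the share of the group's range that the gap to the nearest array takes (Dixon's critical value for 4). Of these 20 groups 2 were set apart, where chance gives about 1. *Lpl* on the second AAV-αSyn array read 5.93 against 6.37 to 6.45 on the others, a gap of 0.851 of the range. *Cst7* on the first AAV-Null array read 2.66 against 1.19 to 1.21, a gap of 0.982, but all of these values were not well above background.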

How the results depend on the processing

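In 20 alternatives (12 of processing and 8 that left out 1 array) 0 member probes, 0 other disease-associated and 0 other homeostatic genes passed the adjustment. At an unadjusted p under 0.05 these counts ran from 0 to 1, 0 to 4 and 0 to 2, where 4.27% to 13.3% of all probes passed, most with array weights. *Apoe*, *Spp1*, *Clec7a*, *Cd68* and *P2ry12* kept their sign in all of them, and the median of the induced genes ran from 0.08 to 0.33 and that of *P2ry12* and *Tmem119* from -0.11 to 0.12. The sign turned for *Gpnmb* without the third (-0.007) or the fourth (-0.017) AAV-Null array. It turned for *Lpl* with array weights (-0.056) and without the third AAV-Null array (-0.16). It turned for *Tmem119* with array weights (0.15), without the third AAV-Null array (0.14), and without the first (0.02) or the fourth (0.13) AAV-αSyn array. With arrays left out, *Gpnmb* ran from -0.017 to 0.23, *Lpl* from -0.16 to 0.20 and *Tmem119* from -0.28 to 0.14. *Clec7a* was 0.15 after normexp and 0.16 with array weights.

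The replicate numbers are also the rows of the slide, and the labels do not say that they pair the samples. Same-numbered arrays correlated at 0.144, 0.267, 0.041 and -0.002 in their deviations from the group means. The highest correlations with an array of another number were 0.139, 0.255, 0.047 and 0.055. These values do not settle whether the rows pair the arrays. With the replicate block, *Clec7a* was 0.38 with an unadjusted p of 0.0498 and an adjusted p of 0.762 by limma, the median of the induced genes was 0.18 and that of the homeostatic genes 0.01, and 0 members passed. Over all probes 0 passed with the block, 10 with array weights and 9 with a robust trend, against 5. The arrays allow about a doubling of *Clec7a*, *Spp1* or *Cd68*, and *Cst7* is limited by its signal over background.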

Other observations

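*Igf1*, the gene for insulin-like growth factor 1 and one of the further disease-associated genes, had 5 tested probes that differed in their result, and it was chosen after its values were seen. The brightest (A_44_P1164271) gave -0.14 (limma, unadjusted p = 0.363). Another (A_44_P1107298) gave -0.38 (limma, unadjusted p = 0.00973, adjusted p = 0.712), and A_64_P052740 gave -0.45 (limma, unadjusted p = 0.0192, adjusted p = 0.779). A_44_P1044658 gave -0.32 (limma, unadjusted p = 0.0212, adjusted p = 0.8), and A_44_P1087068 gave -0.11 (limma, unadjusted p = 0.587). All 5 lay below 0, 3 of them with an unadjusted p under 0.05, and 0 passed the adjustment over all probes.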
